A study of Mus musculus with 13 samples.

Results

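The 36 genes described here encode the enzymes and transporters that carry glucose to lactate, to mitochondrial acetyl-CoA and through the pentose phosphate pathway. They were taken by symbol from a set proposed with earlier results of these data known, and all 36 were found among the 56941 genes of the count table. RNA was sequenced from mouse Th17 cells, CD4 helper T cells defined by secretion of IL-17. In every sample naive CD4+ T cells of the spleen were activated and kept in medium that drives Th17 differentiation for 72 hours. The 3 WT libraries came from mice labelled Chaf1bWT and the 3 KO libraries from mice labelled Chaf1bfl/fl;Il17fCre+, a conditional deletion of Chaf1b. The Chaf1b protein belongs to chromatin assembly factor 1, a chaperone that loads histones onto newly copied DNA. The Cre is driven by Il17f, so deletion can occur only in cells that have switched this gene on, and the share of cells that lost Chaf1b was not measured here. The labels do not say whether the WT mice carried Cre and give no age.

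Glycolysis splits glucose into pyruvate through a series of mostly reversible steps. The steps catalysed by hexokinase, phosphofructokinase and pyruvate kinase are effectively irreversible and are the classical points of control. Activated T cells, Th17 cells among them, take up much glucose and reduce most of the pyruvate to lactate even when oxygen is present, and the transcription factors Myc and HIF-1 are known activators of these genes. The pentose phosphate pathway branches off after hexokinase and yields NADPH and ribose for nucleotide synthesis.

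The libraries held 35708879 to 45232055 counts. The count of Chaf1b was 12.0 ± 0.990 CPM (the share of the library's counts on the usual CPM scale, library totals corrected by edgeR's TMM factors; SD, n = 3) in the WT and 14.9 ± 1.38 CPM (n = 3) in the KO libraries, with a log2 fold change of 0.31 ± 0.11 (SE) and an adjusted p of 0.130. The table sums all exons of a gene, so this count does not check the deletion, and KO below means the libraries labelled KO. The Th17 label was checked on 8 defining markers, of which none was at 0. Their summed level was 310, 212 and 193 CPM in WT replicates 1, 2 and 3 and 98.2 to 101 CPM in the KO libraries, and 4 of the 8, Il17a, Il17f and Rora among them, were called lower. Il22 was the only marker with a higher mean in KO (0.754 CPM, against 0.288 CPM in the WT) and did not pass (adjusted p = 0.0993). WT replicate 1 stood apart from the other WT libraries. Over the 36 genes its median distance from the mean of the other 2 WT libraries was 0.173 (log2 of CPM plus 1). In the same way WT replicates 2 and 3 were at 0.0610 and 0.132 and the KO libraries at 0.0357 to 0.0603. Over all tested genes the distances were 0.146, 0.0852 and 0.124 for WT replicates 1, 2 and 3. WT replicate 1 was the highest WT library for 26 of the 36 genes, against 40.7% of all tested genes. Results that change without it are given both ways. It was singled out on the values of these same libraries, members included. Leaving out the highest WT library of a gene raises its fold change, so such fits are not separate support.

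All 36 genes passed the filter on low counts, and 9 were higher in the KO libraries at an adjusted p under 0.05 (quasi-likelihood F-test of edgeR, Benjamini-Hochberg adjustment over 14681 genes). Of all tested genes 3.92% were higher and 2.47% lower. The 9 were the glucose transporter gene Slc2a3, the glycolytic enzyme genes Gpi1, Aldoa, Gapdh, Pgk1, Pgam1 and Eno1, the pyruvate dehydrogenase kinase gene Pdk2 and the pentose phosphate gene G6pdx. No member was called lower by edgeR, DESeq2 or limma-voom. At an unadjusted p under 0.05, 15 members were higher and 0 lower. The share of all tested genes at this looser threshold was not counted, so the 15 have no background here. The log2 fold change (KO over WT) was above 0 for 32 members and below 0 for 4, although with library totals in place of TMM factors Hk2 and Pdk3 also fell below 0. The median was 0.14, against -0.01 over all tested genes. In 14 members every KO library lay above every WT library, against 14.4% of all tested genes, and in 0 members every KO library lay below, against 12.4%. In bulk RNA, fewer cells of a type and less RNA per cell cannot be told apart, and the same holds for a higher level. The members are enzymes of connected steps in the same libraries and are not independent replicates of a shift.

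**Figure D1:**
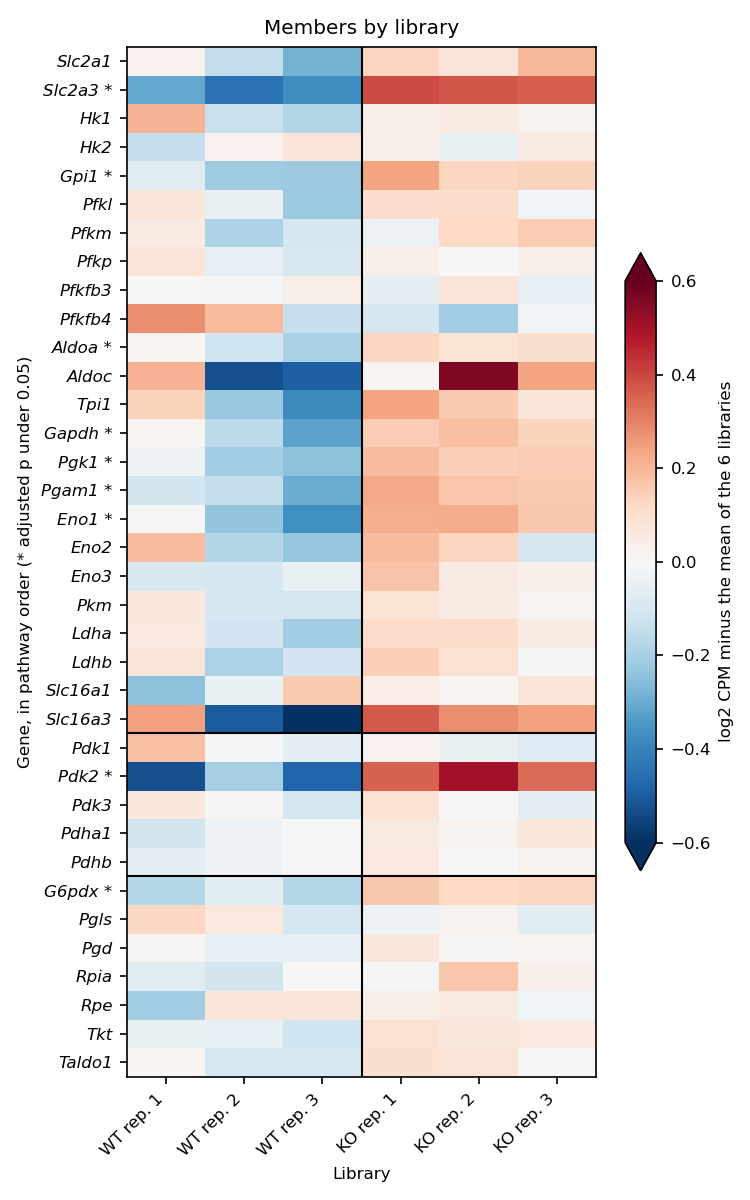
Levels of the 36 genes by library, as log2 CPM minus the mean of the 6 libraries, in pathway order from glucose uptake (top) through the pyruvate dehydrogenase genes to the pentose phosphate genes (bottom). Colours are limited at 0.6 in either direction and an asterisk marks the 9 genes with an adjusted p under 0.05. WT replicate 1 lies closer to the KO libraries than WT replicates 2 and 3 do for many glycolytic genes, such as Tpi1 and Slc16a3.

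Because many members were higher together, the 250 bases before their transcription starts were searched for letters bound by regulators of glycolysis. The RefSeq promoter table (GRCm38.p6) held 35 of the 36 genes, all but Slc2a3. On both strands, the hypoxia response core, ACGTG or GCGTG, occurred before at least 1 start of 31 of the 35 genes (88.6%), against 61.5% of the 9965 tested genes in the table and 41.5% of all 27025 genes in it. It occurred in 7 of 8 higher members (87.5%) and in 24 of 27 members that were not called (88.9%). ACGTG alone occurred in 14 of 35 members (40%) and 25.4% of tested genes, GCGTG in 25 (71.4%) and 50% of tested genes. Of the 8 higher members 4 held ACGTG (50%), against 37% of members not called. GCGTG also occurred in 4 of the 8 (50%), the share of tested genes, against 77.8% of members not called. The Myc-type E-box CACGTG, which contains ACGTG, occurred in 5 members (14.3%) and 9.9% of tested genes. A match describes the letters of this window and shows no binding. The promoters of 4 genes are shown, each 250 bases, 5′ to 3′ on the strand of its gene, ending just before the start. Capitals mark the core motif ACGTG, which reads CACGT on the opposite strand. They likewise mark GCGTG, which reads as CACGC there. Pgk1 (chrX:106186850-106187099, plus strand) and Pgam1 (chr19:41911621-41911870, plus strand) were higher in KO and carry 2 and 3 matches. Gpi1 (chr7:34230337-34230586, minus strand) was higher and carries 0, and Hk2 (chr6:82774455-82774704, minus strand) carries 2 and did not pass the test.
Pgk1: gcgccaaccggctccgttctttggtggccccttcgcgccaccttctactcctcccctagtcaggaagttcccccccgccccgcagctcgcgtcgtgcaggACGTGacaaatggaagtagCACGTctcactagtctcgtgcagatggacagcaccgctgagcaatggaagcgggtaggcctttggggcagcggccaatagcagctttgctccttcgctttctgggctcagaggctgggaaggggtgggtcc
Pgam1: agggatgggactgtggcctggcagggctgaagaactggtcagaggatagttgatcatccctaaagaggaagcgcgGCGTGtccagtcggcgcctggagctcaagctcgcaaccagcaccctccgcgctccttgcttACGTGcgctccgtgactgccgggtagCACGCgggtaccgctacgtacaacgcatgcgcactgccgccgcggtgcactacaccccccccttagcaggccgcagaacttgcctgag
Gpi1: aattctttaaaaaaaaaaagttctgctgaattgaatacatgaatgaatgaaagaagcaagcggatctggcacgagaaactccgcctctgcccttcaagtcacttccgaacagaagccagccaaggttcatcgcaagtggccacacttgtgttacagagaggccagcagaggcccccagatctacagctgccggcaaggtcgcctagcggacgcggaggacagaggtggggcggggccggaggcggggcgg
Hk2: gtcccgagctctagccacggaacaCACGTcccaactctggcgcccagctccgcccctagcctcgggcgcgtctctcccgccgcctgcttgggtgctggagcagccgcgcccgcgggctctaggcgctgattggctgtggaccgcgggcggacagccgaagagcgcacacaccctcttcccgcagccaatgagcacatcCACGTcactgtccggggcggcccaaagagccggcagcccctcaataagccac

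Glucose enters T cells mainly through GLUT1, encoded by Slc2a1, and GLUT3, encoded by Slc2a3, a carrier with high affinity for glucose. Slc2a3 (ENSMUSG00000003153.11) was at 31.8, 28.9 and 30.4 CPM in WT replicates 1 to 3 and at 51.5, 51.0 and 50.4 CPM in KO replicates 1 to 3. The groups did not overlap and the lowest KO library exceeded the highest WT library. The change was 1.68-fold (log2 fold change 0.75 ± 0.06 (SE), adjusted p = 5.66e-05), and it passed in all 15 alternative fits. Slc2a1 was at 135, 120.0 and 109 CPM in the WT and 145, 140.2 and 152 CPM in the KO libraries. Here too all KO libraries lay above all WT libraries, with WT replicate 1 nearest to them. Its log2 fold change of 0.27 ± 0.07 had a 95% interval of 0.11 to 0.43 and missed the threshold (adjusted p = 0.0560); without WT replicate 1 it was 0.35 and passed (adjusted p = 2.84e-06). The share of Slc2a3 in the summed counts of both genes was 19.0%, 19.4% and 21.7% in the WT and 26.2%, 26.7% and 24.9% in the KO libraries. The means were 20.1 ± 1.47% (SD, n = 3) and 25.9 ± 0.927% (n = 3), and the WT and KO libraries did not overlap (two-sided exact permutation p = 0.1, the smallest that 3 against 3 libraries allow; 0.350 after Benjamini-Hochberg adjustment over 21 shares in 9 gene families). Shares are of counts, with no correction for transcript length.

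The genes of the irreversible steps did not pass the test. Hexokinase traps glucose in the cell as glucose phosphate. Hk2, its inducible form, was at 149, 168 and 173 CPM in the WT and 169, 159.8 and 171 CPM in the KO libraries. The groups overlapped, and the log2 fold change was 0.03 ± 0.06 with a 95% interval of -0.11 to 0.16 (adjusted p = 0.855). Hk1, the constitutive form, ran from 118 to 154 CPM in the WT, with WT replicate 1 the highest of all 6 libraries, and from 136 to 138 CPM in the KO libraries (log2 fold change 0.06 ± 0.09, adjusted p = 0.760). The share of Hk1 in the Hk1 and Hk2 counts was 50.8% in WT replicate 1, 42.1% and 40.6% in the other WT libraries and 44.2% to 46.4% in the KO libraries (exact permutation p = 1). Thus WT replicate 1 was the only library with more Hk1 than Hk2 counts.

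Phosphofructokinase commits the sugar to glycolysis, and its 3 subunit genes were measured. Pfkp, the platelet-type subunit, was at 466, 427 and 413 CPM in the WT and 450.5, 442 and 451 CPM in the KO libraries. WT replicate 1 was above every KO library, and the log2 fold change was 0.04 ± 0.05 with a 95% interval of -0.07 to 0.15 (adjusted p = 0.704). Pfkl, the liver-type subunit, was at 82.2, 75.9 and 67.0 CPM in the WT and 83.8, 84.4 and 77.3 CPM in the KO libraries, overlapping (log2 fold change 0.13 ± 0.08, adjusted p = 0.375). Pfkm, the muscle-type subunit, was at 10.2, 8.71 and 9.18 CPM in the WT and 9.66, 10.7 and 11.0 CPM in the KO libraries, also overlapping (log2 fold change 0.16 ± 0.11, adjusted p = 0.479). The intervals of Pfkp and Hk2 exclude a change as large as that of Slc2a3. Pfkfb3 and Pfkfb4 make and degrade the sugar bisphosphate that activates phosphofructokinase. Pfkfb3 was at 46.5, 46.2 and 47.6 CPM in the WT and 44.8, 49.0 and 44.9 CPM in the KO libraries, and KO replicate 2 was the highest and KO replicate 1 the lowest of the 6 (log2 fold change -0.02 ± 0.06, adjusted p = 0.909). Pfkfb4 ran from 6.61 to 8.82 CPM in the WT and 6.29 to 7.20 CPM in the KO libraries (log2 fold change -0.23 ± 0.14, adjusted p = 0.402).

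Pyruvate kinase forms pyruvate at the end of glycolysis. Pkm, its gene in T cells, was at 1206, 1071 and 1074 CPM in the WT and 1221, 1191 and 1164 CPM in the KO libraries, where WT replicate 1 lay within the KO range (log2 fold change 0.09 ± 0.05, adjusted p = 0.318). The gene yields the M1 and M2 isoforms, which a count per gene does not separate. Of these 6 genes of irreversible steps, counting Hk1, Hk2, Pfkl, Pfkm, Pfkp and Pkm, 0 were called by edgeR, DESeq2 or limma-voom, 0 had an unadjusted p under 0.05, and their median log2 fold change was 0.08. Without WT replicate 1, Hk1 (0.19, adjusted p = 0.00190), Pfkl (0.20, adjusted p = 0.0128) and Pkm (0.15, adjusted p = 0.00156) were higher and the median was 0.17.

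Of the 9 higher genes, 6 encode enzymes of reversible glycolytic steps. Gpi1 (ENSMUSG00000036427.6), which converts glucose phosphate to fructose phosphate, was at 322, 293 and 291 CPM in the WT and 399, 370.4 and 373 CPM in the KO libraries. All KO libraries were above all WT libraries (log2 fold change 0.34 ± 0.05, adjusted p = 0.00376), and the call held in all 15 alternative fits. Aldoa (ENSMUSG00000030695.17), the aldolase that cleaves the sugar into triose phosphates, was at 1036, 947 and 898 CPM in the WT and 1123, 1086 and 1097 CPM in the KO libraries. The groups did not overlap, but the rise was small (log2 fold change 0.20 ± 0.05, adjusted p = 0.0430). It was lost without any 1 library other than WT replicate 1 (adjusted p from 0.0746 to 0.205) or with library totals in place of TMM factors (0.0818), and passed in 7 of 15 alternative fits. Aldoc, a second aldolase at 2.74 to 5.82 CPM, and Tpi1, which interconverts the triose phosphates at 216 to 332 CPM, overlapped between groups. Their log2 fold changes were 0.52 ± 0.23 (adjusted p = 0.218) and 0.30 ± 0.12 (adjusted p = 0.182), and without WT replicate 1 they were 0.80 (adjusted p = 0.00458) and 0.46 (adjusted p = 1.40e-07).

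The enzymes from triose phosphate to phosphoenolpyruvate were all represented among the calls. Gapdh (ENSMUSG00000057666.19), which oxidises the triose phosphate and reduces NAD, was at 162, 145 and 129 CPM in the WT and 179, 182 and 177 CPM in the KO libraries. WT replicate 1 was the highest WT library and still below every KO library (log2 fold change 0.30 ± 0.07, adjusted p = 0.0329). Pgk1 (ENSMUSG00000062070.13), which makes the first ATP of the pathway, was at 1044, 925 and 898 CPM in the WT and 1210.1, 1177 and 1182 CPM in the KO libraries, with no overlap (log2 fold change 0.32 ± 0.05, adjusted p = 0.00593). Pgam1 (ENSMUSG00000011752.8), the phosphoglycerate mutase, was at 193, 189 and 170.1 CPM in the WT and 245, 234 and 233 CPM in the KO libraries. The KO libraries lay in a narrow band above all WT libraries (log2 fold change 0.37 ± 0.06, adjusted p = 0.00312). Eno1 (ENSMUSG00000063524.14), the enolase of most tissues, was at 857, 728 and 663 CPM in the WT and 996, 1001 and 958 CPM in the KO libraries. No WT library reached the KO range, although WT replicate 1 came nearest (log2 fold change 0.39 ± 0.08, adjusted p = 0.0186).

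These calls differed in how far they rested on single libraries. Pgam1 passed in all 15 alternative fits, with a highest adjusted p of 0.0404. Pgk1 passed in 14 and was lost without KO replicate 1 (adjusted p = 0.0553). Eno1 passed in 11 and was lost without WT replicate 2 (0.0730) or without KO replicate 1, 2 or 3 (0.0800, 0.0735 and 0.0561). Gapdh passed in 10 and was lost without the same libraries (adjusted p from 0.118 to 0.148) and with library totals in place of TMM factors (0.0544). The authors' counting left out reads that map to several places, so genes with near-identical processed copies, Gapdh among them, are uncertain in level. Adding the counts of named copies of members left 9 members called. The other enolase genes, Eno2 at 20.6 to 27.6 CPM and Eno3 at 6.67 to 8.09 CPM, had log2 fold changes of 0.14 ± 0.12 and 0.17 ± 0.12 and did not pass (adjusted p = 0.561 and 0.475). Eno1 made up 96.0% to 96.3% of the enolase counts in the WT and 96.5% to 97.0% in the KO libraries (exact permutation p = 0.1, adjusted 0.350).

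**Figure D2:**
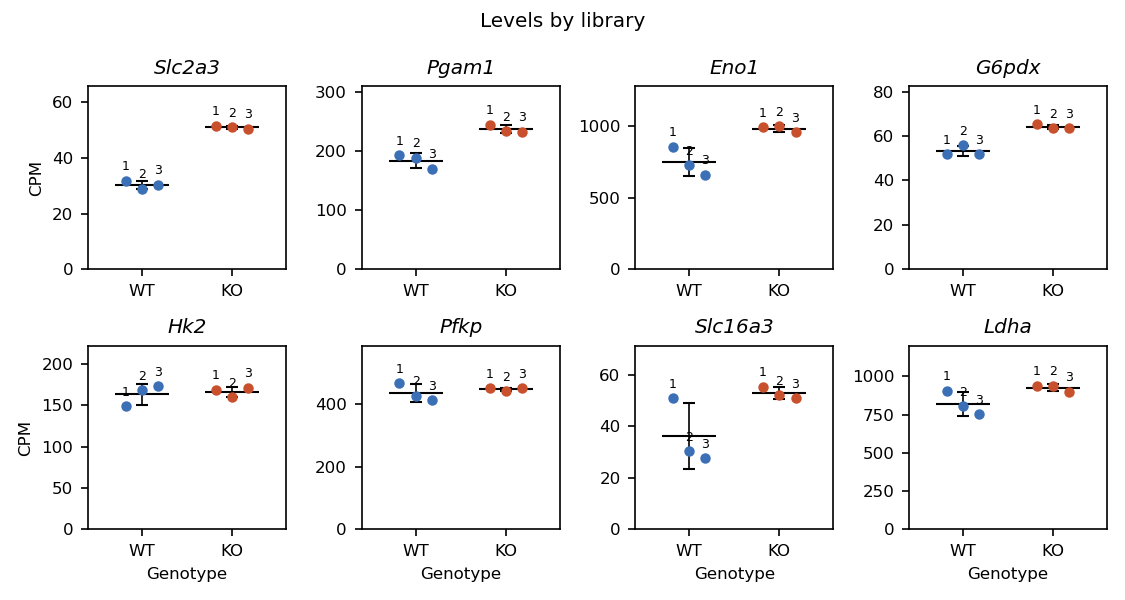
CPM by library for 8 genes, with the axis from 0; points are libraries numbered by replicate, horizontal lines are means and bars are SD (n = 3). Slc2a3, Pgam1, Eno1 and G6pdx (top) were higher in all KO libraries, whereas Hk2 and Pfkp (bottom) overlapped between genotypes, and WT replicate 1 lay apart from WT replicates 2 and 3 for Slc16a3 and Ldha.

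Lactate dehydrogenase reduces pyruvate to lactate and regenerates NAD, and the monocarboxylate transporters carry lactate across the membrane. Ldha, the subunit gene typical of glycolytic cells, was at 906, 805 and 753 CPM in the WT and 939, 939.6 and 898 CPM in the KO libraries. WT replicate 1 lay within the KO range and the other WT libraries below it (log2 fold change 0.17 ± 0.06, adjusted p = 0.128); without WT replicate 1 the log2 fold change was 0.25 (adjusted p = 8.73e-06). Ldhb, at 8.84 to 11.1 CPM, had a log2 fold change of 0.15 ± 0.11 (adjusted p = 0.521), and Ldha held 98.8% to 98.9% of the counts of the pair in every library. Slc16a3, which encodes the lactate exporter MCT4, was at 50.9, 30.4 and 27.6 CPM in the WT and 55.4, 52.2 and 50.9 CPM in the KO libraries. WT replicate 1 was at the KO level and WT replicates 2 and 3 well below it. The log2 fold change was 0.54 ± 0.22 with a 95% interval of 0.02 to 1.06 and did not pass (adjusted p = 0.217), but without WT replicate 1 it was 0.87 ± 0.07 (adjusted p = 6.21e-11). Slc16a1, which encodes MCT1, was at 193, 222 and 254 CPM in the WT and 235, 231 and 240.0 CPM in the KO libraries, so that WT replicate 1 was the lowest library here (log2 fold change 0.08 ± 0.08, adjusted p = 0.665). The share of Slc16a3 in the counts of the pair was 20.9% in WT replicate 1, above the 17.5% to 19.1% of the KO libraries, and 12.0% and 9.78% in WT replicates 2 and 3 (exact permutation p = 0.4).

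**Figure D3:**
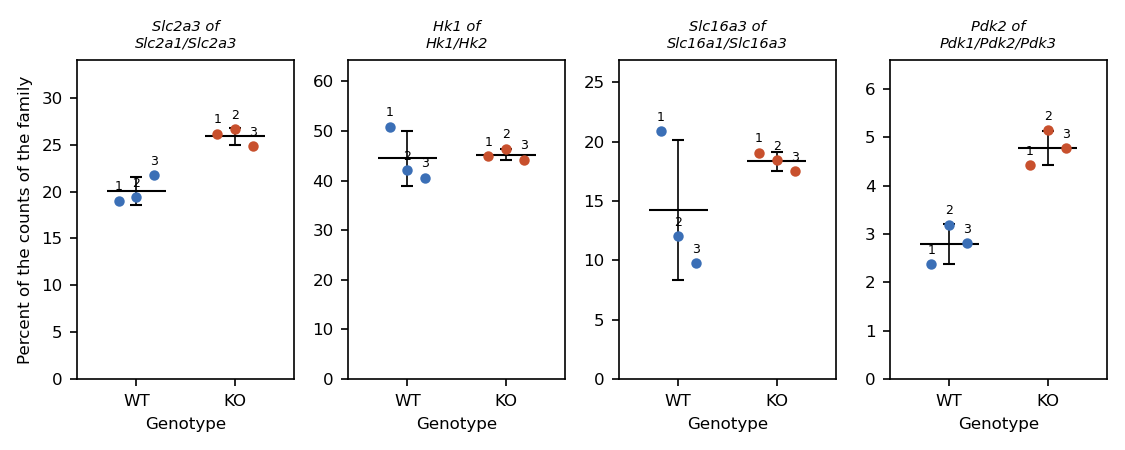
Share of one gene in the summed counts of its gene family by library, in percent, with the axis from 0; points are libraries numbered by replicate, lines are means and bars SD (n = 3). The shares of Slc2a3 and Pdk2 were higher in all KO libraries, while those of Hk1 and Slc16a3 were highest in WT replicate 1.

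Grouped by step, the reversible enzymes with lactate dehydrogenase counted 6 of 12 genes higher and a median log2 fold change of 0.30. The 4 glucose and lactate transporters counted 1 higher and a median of 0.40, and the 6 genes of the irreversible steps 0 higher and a median of 0.08. This grouping was chosen after the values were seen and the difference between groups was not tested. Without WT replicate 1 the counts were 10 of 12, 3 of 4 and 3 of 6, and the medians 0.39, 0.57 and 0.17.

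Pyruvate dehydrogenase turns pyruvate into acetyl-CoA in mitochondria, and the pyruvate dehydrogenase kinases switch it off. Pdk2 (ENSMUSG00000038967.14) was at 1.95, 2.45 and 2.02 CPM in the WT and 3.59, 3.98 and 3.56 CPM in the KO libraries. The level was low in all libraries and the groups did not overlap (1.74-fold, log2 fold change 0.80 ± 0.18, adjusted p = 0.0272). The call was lost without any 1 library other than WT replicate 1 (adjusted p from 0.0547 to 0.137). Pdk1, a known HIF-1 target, was at 33.5, 29.4 and 28.4 CPM in the WT and 30.2, 28.7 and 28.1 CPM in the KO libraries, overlapping (log2 fold change -0.07 ± 0.08, adjusted p = 0.687). Pdk3 ran from 41.7 to 47.5 CPM over both groups (log2 fold change 0.02 ± 0.07, adjusted p = 0.903). The share of Pdk2 in the counts of the 3 kinases was 2.37%, 3.19% and 2.80% in the WT and 4.42%, 5.14% and 4.77% in the KO libraries, without overlap (exact permutation p = 0.1, adjusted 0.350). Pdha1 and Pdhb, which encode subunits of the dehydrogenase itself, ran from 158 to 178 CPM and from 125 to 135 CPM. Their log2 fold changes were 0.09 ± 0.05 and 0.05 ± 0.05 and did not pass (adjusted p = 0.307 and 0.577).

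G6pdx (ENSMUSG00000031400.11) encodes glucose-phosphate dehydrogenase, the committed and NADPH-forming step of the pentose phosphate pathway. It was at 51.9, 55.7 and 51.8 CPM in the WT and 65.3, 63.5 and 63.6 CPM in the KO libraries. Each KO library was above each WT library, and WT replicate 1 was among the lower WT libraries here (log2 fold change 0.27 ± 0.06, adjusted p = 0.0187). The call was lost without KO replicate 1, 2 or 3 (adjusted p = 0.129, 0.0988 and 0.0915). It was the only one of the 7 pentose phosphate genes to pass in edgeR, DESeq2 and limma-voom. The lactonase gene Pgls (-0.06 ± 0.07) and Pgd (0.06 ± 0.05), the second NADPH-forming enzyme, had log2 fold changes near 0. Those of Rpia and Rpe, which isomerise pentose phosphates, were 0.12 ± 0.06 and 0.04 ± 0.08. Tkt and Taldo1 return pentoses to glycolysis. Tkt was at 314 to 331 CPM in the WT and 356 to 364 CPM in the KO libraries, with no overlap (log2 fold change 0.14 ± 0.04, adjusted p = 0.0790), and Taldo1 had a log2 fold change of 0.12 ± 0.05 (adjusted p = 0.250). Without WT replicate 1 both passed, with log2 fold changes of 0.16 (adjusted p = 0.00329) and 0.15 (adjusted p = 0.0224).

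Leaving out WT replicate 1 raised the number of higher members from 9 to 20, with 0 lower, while the share of higher genes over all 15039 genes then tested was 10.6%. Among genes of at least 20 CPM, where 30 members lie, 18 members were higher against 14.8% of all such genes, and 8 against 4.79% with all libraries. The added calls were Slc2a1, Hk1, Pfkl, Aldoc, Tpi1, Eno2, Pkm, Ldha, Slc16a3, Tkt and Taldo1. The KO libraries all lay above WT replicates 2 and 3 in 26 members, against 23.5% of tested genes, and below both in 1 member, against 22.2%. Leaving out WT replicate 2 or 3 left 5 and 7 members called as higher, against 1.77% and 3.84% of the genes then tested. Leaving out KO replicate 1, 2 or 3 left 3, 4 and 4, against 1.48%, 1.6% and 1.56%. In 17 members WT replicate 1 lay within or above the range of the KO libraries. The share of all tested genes for which this holds was not counted, so the 17 cannot be read as a trait of the members. The summed Th17 markers of WT replicate 1 were the highest of all libraries, and the part of this in the results was not tested.

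**Figure D4:**
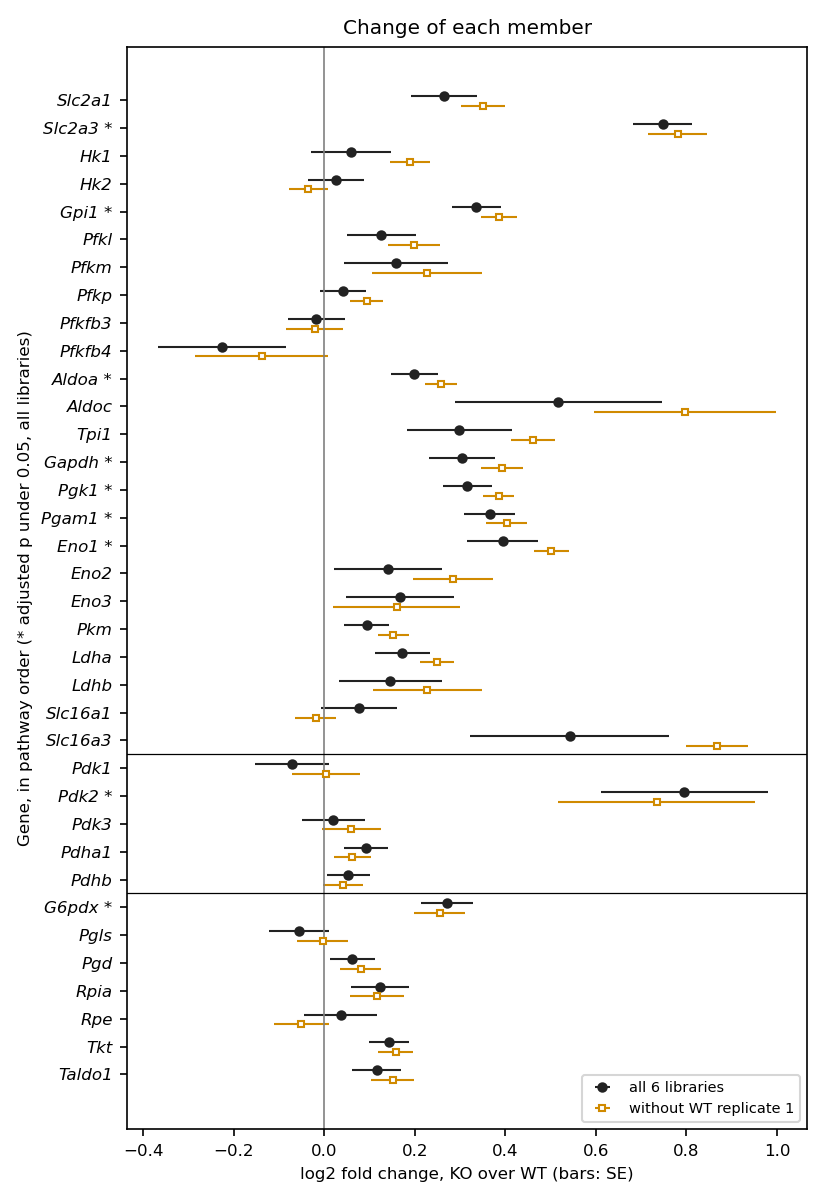
Log2 fold change (KO over WT) of each of the 36 genes in pathway order, with all 6 libraries (filled circles) and without WT replicate 1 (open squares); bars are SE and an asterisk marks an adjusted p under 0.05 with all libraries. The SE of Slc16a3 shrank from 0.22 to 0.07 and that of Tpi1 also narrowed when WT replicate 1 was left out, while Hk2 and Pfkfb3 stayed near 0.

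Together the 36 genes took 0.868%, 0.783% and 0.755% of all counts in WT replicates 1, 2 and 3 and 0.915%, 0.906% and 0.893% in KO replicates 1, 2 and 3. The KO libraries were all higher, and the means were 0.802 ± 0.0589% (SD, n = 3) and 0.905 ± 0.0111% (n = 3). The 24 glycolysis and lactate genes carried most of this, with 0.688 ± 0.0575% in the WT and 0.785 ± 0.0100% in the KO libraries. The 7 pentose phosphate genes took 0.0768 ± 0.00179% and 0.0813 ± 0.00106%.

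**Figure D5:**
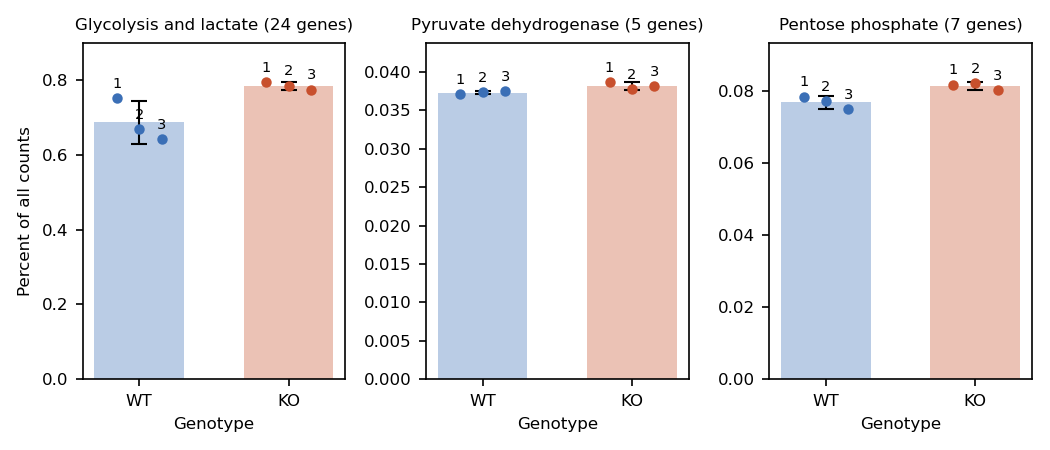
Share of all counts of a library held by the members, in percent, for the 24 glycolysis and lactate, 5 pyruvate dehydrogenase and 7 pentose phosphate genes; bars are means from 0, points are libraries numbered by replicate and error bars are SD (n = 3). The KO libraries lie above the WT libraries in each panel, and WT replicate 1 is the WT library nearest to them for the glycolysis and lactate genes.

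Few other genes around the pathway passed the test. Of 17 tested genes of a further glycolysis list (28 listed), 8 of pyruvate entry into mitochondria and 5 further pentose phosphate genes, edgeR called 0; at an unadjusted p under 0.05 each list had 1 gene higher and 1 lower. DESeq2 called 0, 0 and 1 of these genes and limma-voom 0 in each list. Their median log2 fold changes were 0.01, -0.08 and 0.03. The tricarboxylic acid cycle list had 1 of 18 genes higher, Mdh1, the cytosolic malate dehydrogenase (log2 fold change 0.26 ± 0.05, adjusted p = 0.00681), which did not pass without KO replicate 1, 2 or 3. Of 17 tested HIF-1 targets outside glycolysis 2 were higher, the collagen prolyl hydroxylase gene P4ha1 (0.44 ± 0.06, adjusted p = 0.00104) and the oxidase gene Ero1l (0.34 ± 0.04, adjusted p = 0.00113). Without WT replicate 1 the calls were 2, 2 and 1 in the first 3 lists, 6 in the tricarboxylic acid cycle list and 6 among the HIF-1 targets. Of these calls Pgm2l1, Pdpr, Prps2, Pcx and Fam162a were lower and the rest higher. Over all 15039 genes then tested 19.7% were called in either direction.

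Among 22 tested regulators of glycolysis 1 was higher and 2 were lower, with a median of -0.08. Myc was at 335, 401 and 407 CPM in the WT and 309.8, 310.2 and 329.6 CPM in the KO libraries. Every KO library lay below every WT library, so its direction was opposite to that of the called members (log2 fold change -0.27 ± 0.07, adjusted p = 0.0466). Irf4, a transcription factor induced by T cell receptor signals, was also lower (-0.31 ± 0.04, adjusted p = 0.00142), and Mlx, a partner of the glucose-sensing Mondo proteins, was higher (0.23 ± 0.06, adjusted p = 0.0413). Without WT replicate 1, 5 regulators were called: Myc, Irf4 and Max, a partner of Myc, as lower, and Mlx and Txnip, an inhibitor of glucose uptake, as higher. Without WT replicate 2 or 3 or any 1 KO library, 1 regulator was called. Hif1a, the oxygen-regulated subunit of HIF-1, was at 255, 214 and 221 CPM in the WT and 219, 213 and 209 CPM in the KO libraries and overlapped (log2 fold change -0.11 ± 0.06, adjusted p = 0.370). Its RNA level does not measure its protein, which oxygen controls.

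Markers of other cells also differed between the genotypes. The summed level of 6 gamma delta T cell markers was 51.8 to 63.4 CPM in the WT and 95.4 to 99.5 CPM in KO. Of the 6, 4 were called higher: Tcrg-C4, Tcrg-C2, Tcrg-C1 and Trdc. Trdc held the largest part, with means of 41.2 CPM in the WT and 65.7 CPM in the KO libraries. Blk (log2 fold change -1.85 ± 0.73, adjusted p = 0.174) and Sox13 (-0.38 ± 0.47, adjusted p = 0.704) went the other way and did not pass. Both were under 1 CPM in every library, and for Blk all KO libraries lay below all WT libraries. Whether the KO libraries held more gamma delta T cells was not tested. Of 4 tested B cell markers 2 were called higher and 1 lower. The summed level of all 7 was 69.4 to 82.2 CPM in the WT and 95.3 to 103 CPM in the KO libraries. That of 12 myeloid and dendritic cell markers was 5.91 to 6.81 and 11.7 to 12.6 CPM, with S100a8, S100a9 and Siglech at 0. Of these 4 were tested and 1 was called, Fcer1g, which went from a mean of 0.770 CPM in the WT to 4.27 CPM in the KO libraries and made up most of the difference of the sums. Of 7 erythroid markers the sum was 0.693 to 1.02 CPM in the WT and 1.75 to 5.17 CPM in the KO libraries, without overlap, and the 1 that was tested was called higher. The 9 CD4 T cell markers summed to 2236 to 2689 CPM in the WT and 2160.1 to 2227 CPM in the KO libraries. This gap depended on the scaling. With TMM factors, 1.007 in WT replicate 3 and 0.994 in KO replicate 2, these libraries changed order and the groups overlapped. The CD8 T cell and the NK and innate lymphoid marker sums overlapped between genotypes, and Ncr1 and Klrb1c of the latter were at 0. Even so, 1 of the 4 tested NK and innate lymphoid markers was called higher. It was Eomes, with means of 2.60 CPM in the WT and 4.84 CPM in the KO libraries (log2 fold change 0.90 ± 0.17, adjusted p = 0.0107). The part of these differences in the levels of the glycolysis, lactate and pentose phosphate genes was not tested.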

How the data were processed

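The analysis used RNA-seq counts of 6 mouse Th17 libraries, 3 WT and 3 KO. The other 7 of the 13 samples, which profile chromatin, were left aside and not analysed here. Per the labels' protocols, TRIzol RNA was made into TruSeq libraries. The deposited table gives unnormalized counts for each gene. Per the file headers, the authors counted with featureCounts 2.0.1 against GENCODE vM33, by exon summed over genes, without strand and without multi-mapping reads. For the aligner's version and the build, nothing is given in the sources used here. The deposited values of WT replicate 2 carry the unit "other" in the record of units because its column name could not be read there; they are whole raw counts. In each library 65.6% to 67.7% of the counts from 1 to 20 were even numbers, a pattern that separate counting of mates would leave. How mates were counted was not tested, and fragments may be fewer than counts.

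Of 56941 gene IDs 51948 matched a symbol (91.2%), and unmatched rows, with at most 0.204% of a library's counts, remained in the fit. WT and KO were compared in edgeR 4.0.16 under R 4.3.3 (filterByExpr, TMM, robust quasi-likelihood F-test), adjusting p by Benjamini and Hochberg over 14681 genes. Alternatives were DESeq2 1.42.0, limma-voom (limma 3.58.1), other scalings and filters, a replicate block and leaving out each library. CPM use TMM library sizes, except for marker sums, which use library totals without factors. Errors are SD over 3 libraries for CPM and shares, and SE for log2 fold changes. The depth and spread gave 95% intervals of log2 fold changes with a median half-width of 0.15 at 20 CPM and above, 0.27 at 5 to 20 CPM, 0.53 at 1 to 5 CPM and 1.06 below 1 CPM. No label ties a library to an animal, so p-values reflect the spread among these libraries. No label says that replicate numbers pair WT and KO libraries, so the main test has no pairing. Deviations of same-numbered WT and KO libraries correlated at -0.0352, -0.0420 and 0.0442. Those of differently numbered libraries ran from -0.0861 to 0.102. Such values show no shared effect of the number but cannot tell whether the libraries were paired. The gene test was tested on simulated data. Promoters came from RefSeq (GRCm38.p6) by symbol.

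The members, gene lists and tests were chosen with earlier results of these data known. Per-library values are given for members past the threshold and for Slc2a1, Slc2a3, Hk2, Pfkl, Pfkm, Pfkp, Pfkfb3, Gapdh, Pkm, Ldha, Slc16a1, Slc16a3, Pdk1 and G6pdx whatever their result, and ranges or fold changes for the rest. From the other lists, genes past the threshold (at most 4 a list) were named, with Hif1a and Myc in any case. A few further genes were named where they went against the rest of their list. Paralogue shares were planned per exon length; lengths were not used here, so they are shares of counts. The value of 1 marker gene is not reported here.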

Additional observations from a re-analysis of the deposited data

How the results depend on the processing

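The 36 fold changes were refitted under 15 alternatives, and 9 members were called with limma-voom, the replicate block, the stricter filter of 1 CPM or the counts of copies added, 11 with DESeq2, 8 with upper-quartile factors, 7 with library totals, 12 with no filter and 18, all higher, with quality weights per library. No setting called a member lower. The share of all tested genes called higher also moved with the setting. It was 3.83% with limma-voom, 3% with the replicate block, 4.5% with the stricter filter and 3.92% with the copies added. With DESeq2 it was 5.47%, with upper-quartile factors 3.88%, with library totals 3.16%, with no filter 3.15% and with quality weights 10.6%. Leaving out 1 library gave 3 to 20 called members, all higher, 295 to 2961 called genes, 225 to 1589 higher and 70 to 1372 lower. Of all genes, 1568 were called with no filter (746 lower) and 2934 with quality weights (1558 higher and 1376 lower); DESeq2 called 569 lower. The replicate block, with numbers that no label says pair the libraries, called 671 genes (440 higher and 231 lower). Aldoa and Pdk2 were not called in it. The 9 called members kept their direction in every alternative. Fold changes near 0 changed sign: Hk2 was at -0.00260 with library totals and -0.00918 with quality weights, Pdk3 at -0.00945 with library totals and Rpe at -0.0253 with quality weights. With 1 library left out, Hk1 ran from -0.0115 to 0.190, Hk2 from -0.0354 to 0.0710, Pfkfb3 from -0.0650 to 0.00114, Slc16a1 from -0.0187 to 0.181, Pdk1 from -0.117 to 0.00375, Pdk3 from -0.0251 to 0.0595 and Rpe from -0.0505 to 0.0824. The KO minus WT difference in the share of Hk1 then ran from -1.30 to 3.83 points and that of Ldha from -0.0107 to 0.0574 points; the cause of these changes was not tested. The share of all counts held by the members differed by 0.0789 to 0.135 points when 1 library was left out. Shares per exon length were not run. At 5 to 20 CPM a change under 0.27 on the log2 scale is within the median interval, so small differences of Pfkm, Pfkfb4, Eno3 and Ldhb were not detectable at this depth and number of libraries.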
